A study of Mus musculus with 6 samples.

Results

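The lecticans, tenascins and link proteins of brain extracellular matrix were followed through 6 RNA-seq libraries of mouse oligodendrocyte progenitors (OPCs), proliferating glial precursors from which the myelin-making oligodendrocytes of the brain develop. The members were 10 genes chosen by symbol: the lecticans Acan, Bcan, Ncan and Vcan, the related proteoglycan gene Cspg5, the tenascins Tnr and Tnc, and the link protein genes Hapln1, Hapln2 and Hapln4. All 10 of them were among the 24421 genes listed, and all 10 passed the filter on low counts that left 15906 genes for testing. A group of 3 libraries had the genotype Prrc2bf/f; Olig2-Cre (knockout) and a group of 3 had Prrc2bf/f without Cre (control), all from C57BL/6J pups at postnatal day 4. Floxed Prrc2b alleles, which encode an RNA-binding protein of the PRRC2 family, were shared by both groups, and only the knockout group carried Cre driven by Olig2, which acts in cells that express Olig2 or descend from such cells. Per the labels' protocols, cortical cells were selected on plates coated with GalC antibody, then O4 antibody, and grown in proliferation medium, whereas the series' design text speaks of brain tissue. A group with Olig2-Cre and unfloxed Prrc2b was not among them, so effects of the Cre allele and of Prrc2b loss cannot be told apart. Whether a replicate stands for its own animal is not stated in the labels, so the p-values reflect only how these libraries vary, which may be technical.

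Lecticans are large chondroitin sulphate proteoglycans that carry a hyaluronan-binding domain at one end and a lectin-like domain at the other. The first binds hyaluronan chains with the help of link proteins, and the other binds tenascins, so that the 3 kinds of protein together hold the loose matrix around brain cells. In the brain this matrix is known from perineuronal nets and from nodes of Ranvier, where axons of myelinated fibres are exposed. OPCs and astrocytes are known sources of several of these proteins, and neurons make some of them too.

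Prrc2b itself averaged 750.1 ± 88.3 CPM in knockout and 979 ± 87.0 CPM in control libraries (SD, n = 3 each; CPM, counts scaled to the same total over all listed genes), and the groups did not overlap. On the log2 scale it fell by 0.41 with the replicate number as a block (SE 0.06; adjusted p = 0.00688 by edgeR), whereas without the block the same difference had SE 0.13 and an adjusted p of 1.00 by edgeR. Gene counts per library ranged from 26015604 to 28114968. The 10 OPC markers summed to between 2303 and 4842 CPM in knockout and between 2258 and 4052 CPM in control libraries. Of these sums Ptprz1 alone made up between 1517 and 2738 CPM and between 1333 and 2331 CPM. With the block edgeR called 0 of the OPC markers, against 3.80% of all tested genes. Olig2 came nearest, at a log2 fold change of -0.50 (SE 0.12; adjusted p = 0.0533 by edgeR). Between libraries of the same number, 2 OPC markers were higher and 2 lower in every knockout library. The 12 neuron markers summed to between 2324 and 3266 CPM in knockout and between 2537 and 3360 CPM in control libraries. None of these markers was at 0 in any library. Because these are bulk samples holding several cell types, fewer cells of a type and less RNA per cell cannot be told apart in any value below.

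The genes lie in pairs in the mouse genome, each lectican beside a link protein gene with 0 protein-coding genes in between (GENCODE M21, GRCm38). Vcan (ENSMUSG00000021614.16) and Hapln1 (ENSMUSG00000021613.9) share chromosome 13 between 89539796 and 89742509, 43659 bases apart. Bcan (ENSMUSG00000004892.13) and Hapln2 (ENSMUSG00000004894.10) share chromosome 3 between 87987531 and 88027583, with a gap of 21519 bases. Ncan (ENSMUSG00000002341.8) and Hapln4 (ENSMUSG00000007594.10) share chromosome 8 between 70083457 and 70120873, with a gap of 2222 bases and opposite strands. Acan (ENSMUSG00000030607.7) and Hapln3, a link protein gene outside the members, share chromosome 7 between 79053483 and 79131018, tail to tail with 2 bases between them. Tnr (ENSMUSG00000015829.13) is on chromosome 1 from 159523769 to 159931729, Tnc (ENSMUSG00000028364.15) on chromosome 4 from 63959785 to 64047015, and Cspg5 (ENSMUSG00000032482.9) on chromosome 9 from 110243783 to 110262576.

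Promoter sequences of 8 members were found by symbol in RefSeq's GRCm38.p6 set, and those of the 4 members with the highest counts and of Acan, whose value came nearest to the threshold with the block among all members in the edgeR fit, are shown as the 250 bases before the annotated start, 5′ to 3′ on the gene's strand. They lie at chr8:70120845-70121094 (minus strand) for Ncan, chr3:88000357-88000606 (minus) for Bcan, chr4:64047016-64047265 (minus) for the first of the starts listed for Tnc, chr13:89742513-89742762 (minus) for Vcan and chr7:79052976-79053225 (plus) for Acan. Capitals mark matches on either strand to any of 6 motifs: CAGCTG (an E-box), ACAATG and ACAAAG (SOX type), TTGGCA (NFI type), GGGCGG (the GC box) and TATAAA.
Ncan: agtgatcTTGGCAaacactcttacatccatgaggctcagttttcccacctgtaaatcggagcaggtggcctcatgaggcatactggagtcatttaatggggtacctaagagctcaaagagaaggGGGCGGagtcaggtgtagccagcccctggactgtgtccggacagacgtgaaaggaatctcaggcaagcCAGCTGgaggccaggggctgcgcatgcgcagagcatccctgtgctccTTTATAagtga
Bcan: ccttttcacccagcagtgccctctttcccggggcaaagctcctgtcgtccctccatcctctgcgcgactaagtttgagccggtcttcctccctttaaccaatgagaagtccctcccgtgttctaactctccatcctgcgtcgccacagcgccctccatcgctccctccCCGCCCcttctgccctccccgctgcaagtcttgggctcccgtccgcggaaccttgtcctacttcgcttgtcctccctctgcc
Tnc: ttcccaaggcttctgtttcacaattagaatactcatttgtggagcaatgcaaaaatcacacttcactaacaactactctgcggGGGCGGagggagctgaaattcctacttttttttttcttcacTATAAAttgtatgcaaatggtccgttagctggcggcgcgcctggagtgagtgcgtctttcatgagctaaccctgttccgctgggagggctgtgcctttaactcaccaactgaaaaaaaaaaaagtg
Vcan: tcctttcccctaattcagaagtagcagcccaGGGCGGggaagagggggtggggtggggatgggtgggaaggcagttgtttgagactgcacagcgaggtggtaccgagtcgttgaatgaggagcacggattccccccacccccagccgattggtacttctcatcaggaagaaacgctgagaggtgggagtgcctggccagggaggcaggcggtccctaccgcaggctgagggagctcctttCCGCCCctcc
Acan: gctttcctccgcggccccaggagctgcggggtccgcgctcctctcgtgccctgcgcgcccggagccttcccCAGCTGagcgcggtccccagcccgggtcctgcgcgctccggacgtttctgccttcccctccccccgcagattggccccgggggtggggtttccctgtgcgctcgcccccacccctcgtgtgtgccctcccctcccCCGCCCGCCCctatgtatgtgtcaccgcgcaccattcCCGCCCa
The GC box was found in 5 of the 8 members with a promoter sequence, the 5 shown, at 3 sites in Acan, of which 2 overlap, at 2 in Vcan and at 1 in each of the others. It was not found in Tnr, Hapln1 or Hapln2, and over all 32851 promoter windows of this length 32.7% hold it. CAGCTG was found in Ncan, Acan and Hapln2, against 13.0% of all windows, TTGGCA in Ncan and before the other start of Tnc, against 12.3%, and TATAAA in Ncan and Tnc, against 12.4%. Of the SOX-type motifs ACAATG was found in Hapln2 and ACAAAG in Tnr, and neither was found in the other members, while 10.7% and 16.5% of all windows hold ACAATG and ACAAAG. These are matches of letters, with no reading of binding.

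No member passed the test for a difference between knockout and control libraries. Without the block, edgeR called 0 of the 10 members at an adjusted p under 0.05, against 0% of all tested genes, and 0 members had an unadjusted p under 0.05, against 1.72% of tested genes. The adjusted p of each member in that fit was 1.00, and DESeq2 and limma-voom called 0 members as well. When the replicate number entered as a block, edgeR, DESeq2 and limma-voom each called 0 members, where edgeR called 3.80% of all tested genes (1.57% higher, 2.23% lower). With the block 2 members, Acan and Hapln4, had an unadjusted p under 0.05, against 18.2% of tested genes. The members' median log2 fold change was 0.08 without and 0.07 with the block, beside 0.00 over all tested genes in both fits. In the direction of their pairs, 5 members were higher in the knockout library of all 3 same-numbered pairs, 0 were lower in all 3 and 5 were mixed, against 23.9% and 16.0% of tested genes higher and lower in all 3 (19.6% and 20.9% on TMM-scaled CPM, which left the pair directions of all 10 members as they were).

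Ncan encodes neurocan, a lectican made in the developing brain, and had the highest counts of the family. It stood at 1133, 820.0 and 1431 CPM in knockout libraries 1, 2 and 3, against 1117, 736 and 1269 CPM in control libraries 1, 2 and 3. The groups overlapped, and in both of them library 3 was the highest and library 2 the lowest. The estimated log2 fold change was 0.09 (SE 0.26), with a 95% interval from -0.53 to 0.71.

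Bcan encodes brevican, the short brain-specific lectican, and stood at 672, 412 and 640.5 CPM in knockout libraries, against 630.1, 393 and 605 CPM in control libraries. Library 2 was the low one in both groups, and each knockout library lay slightly above the control library of its number. The log2 fold change of Bcan was 0.06 (SE 0.24). With the block it was 0.05 (SE 0.04; adjusted p = 0.545 by edgeR), and after correction for transcript GC content with the block it was 0.19 (SE 0.04) with an edgeR adjusted p of 0.0539, the lowest that any member reached in any setting. The longest Bcan transcript is 60.7% G and C, the highest share among the members.

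Vcan encodes versican, whose large splice forms are found in glia and many other tissues, and the counts do not separate those forms. It stood at 647, 448 and 421 CPM in knockout libraries, against 599, 422 and 412 CPM in control libraries. Here library 1 was the high one in both groups and libraries 2 and 3 lay close together, an order unlike that of Ncan and Bcan. The groups overlapped, at a log2 fold change of 0.06 (SE 0.22).

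Acan encodes aggrecan, the lectican of cartilage and of perineuronal nets, and was far less abundant. Its counts were 418, 135 and 276 in knockout libraries, against 298, 66 and 222 in control libraries, which is 15.3, 4.82 and 10.6 CPM against 10.9, 2.45 and 7.90 CPM. Each knockout library was above the control library of the same number, while the groups as wholes overlapped. The log2 fold change of Acan was 0.51 (SE 0.61), and with the block 0.57 (SE 0.16, 95% interval 0.22 to 0.92), at an edgeR adjusted p of 0.0802 and an unadjusted p of 0.00473. Leaving out a library moved the value without the block between 0.09 and 0.97, and over all settings with the block the lowest adjusted p was 0.0795. The neighbouring Hapln3, whose end lies 2 bases from that of Acan, stood at 6.26 ± 0.761 CPM in knockout and 5.77 ± 1.46 CPM in control libraries (SD, n = 3 each), with a log2 fold change of 0.10 (SE 0.26).

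Cspg5 encodes neuroglycan C, a membrane-spanning chondroitin sulphate proteoglycan with an EGF-like domain that is expressed in the brain. It stood at 375, 212 and 392 CPM in knockout libraries, against 351, 201 and 394 CPM in control libraries. The groups overlapped, with library 2 low in each. For Cspg5 the log2 fold change was 0.03 (SE 0.31), and with the block the 95% interval ran from -0.06 to 0.11.

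**Figure D1:**
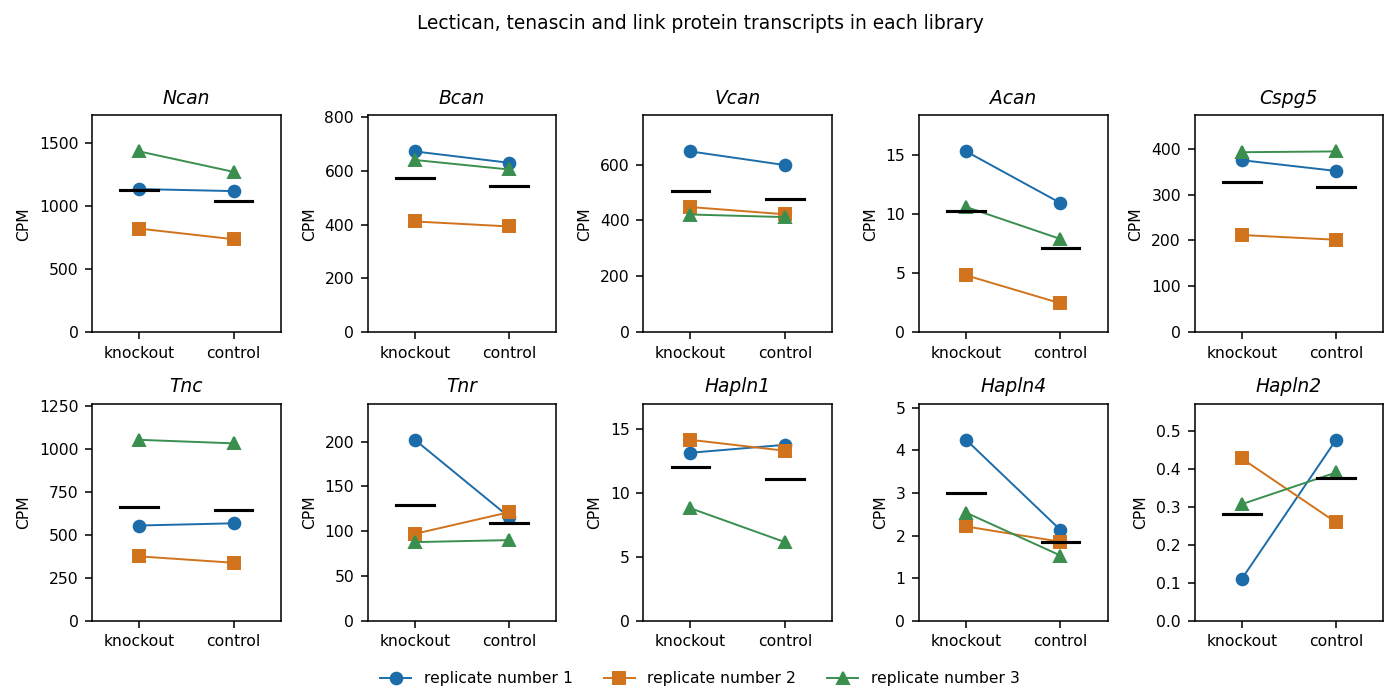
CPM (vertical axes, each starting at 0) of the 10 genes in knockout libraries (left) and control libraries (right), with a line joining libraries of the same replicate number and black bars for group means. In Ncan and Tnc the replicate numbers lie apart, and in Bcan and Cspg5 number 2 lies below the others. The joining lines of these genes change less than the range between numbers. In Acan each line is lower at control, and Hapln4 is the gene whose groups do not overlap.

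Tenascins are multi-armed matrix glycoproteins that bind lecticans. Tnc, encoding tenascin-C of immature glia, stood at 555, 374 and 1054 CPM in knockout libraries, against 567, 337 and 1034 CPM in control libraries. Library 3 was the high one in both groups, and the highest library was 3.13 times the lowest, while the groups' means were 661 ± 352 and 646 ± 355 CPM (SD, n = 3 each). The log2 fold change of Tnc was 0.01 (SE 0.49), and with the block its 95% interval ran from -0.08 to 0.13. In the libraries numbered 3, where Tnc was highest, the 10 ependymal and choroid plexus markers summed to 2809 CPM in knockout and 1897 CPM in control, against at most 1057 and 456 CPM in the other libraries. Ttr alone made up 2616 and 1756 CPM of the sums under number 3. Ttr, Kcnj13, Folr1, Otx2 and Kl were highest in library 3 of both groups. Foxj1, Ccdc153, Dynlrb2, Rsph1 and Tmem212 were instead highest in library 1 of both. The sum of the 10 pericyte and fibroblast markers was also highest in library 3 of both groups, at 1217 and 830 CPM, against at most 440 and 421 CPM. Of these markers Cspg4 and Acta2 were highest in library 1 of both groups and the others in library 3. The sum of the 10 endothelial markers was highest in library 3 too, at 341.5 and 98.4 CPM, against at most 136.5 and 63.95 CPM. That of the 10 microglia markers was highest in library 2 of both groups, at 328.8 and 336.5 CPM, and was 266.5 and 234.3 CPM in library 3. None of these markers was at 0, and their part in the Tnc level was not tested.

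Tnr, encoding tenascin-R, which is made by cells of the oligodendrocyte lineage and by some neurons, stood at 202, 97.0 and 87.8 CPM in knockout libraries, against 116, 121 and 90.0 CPM in control libraries. The knockout library numbered 1 stood apart from the other 5, which lay between 87.8 and 121 CPM. The log2 fold change of Tnr was 0.22 (SE 0.34), and with the block 0.13 (SE 0.17; adjusted p = 0.755 by edgeR). Without the pair numbered 1 the blocked value was -0.20 (SE 0.08; adjusted p = 0.228 by edgeR). In that same knockout library the 10 OPC markers had their highest sum, 4842 CPM, against 4052 CPM in control library 1, and the 10 markers of mature oligodendrocytes summed to 676 CPM, against 283 CPM in control library 1. Of the OPC sums Ptprz1 alone made up 2738 and 2224 CPM. The highest sum of the mature oligodendrocyte markers, 858 CPM, was in control library 2, where Tnr stood at 121 CPM. The part of these in the Tnr value was not tested.

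Link proteins pin lecticans to hyaluronan. Hapln1, the link protein of cartilage and of perineuronal nets, stood at 13.2, 14.2 and 8.80 CPM in knockout libraries, against 13.8, 13.3 and 6.15 CPM in control libraries. It was lowest in library 3 of both groups, where Tnc and Ncan were highest. Its groups overlapped, with a log2 fold change of 0.09 (SE 0.36).

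Hapln4, a brain link protein also called Bral2, had 116, 62 and 66 counts in knockout libraries, against 58, 50 and 43 counts in control libraries, or 4.25, 2.21 and 2.54 CPM against 2.13, 1.85 and 1.53 CPM. It was the 1 member whose groups did not overlap, where 6.11% of all tested genes had groups that did not overlap. The log2 fold change of Hapln4 was 0.68 (SE 0.36), and with the block 0.64 (SE 0.27, 95% interval 0.03 to 1.26), where edgeR gave an unadjusted p of 0.0420 and an adjusted p of 0.255. Without knockout library 1, the highest, the log2 fold change was 0.34 (SE 0.35), and with the block and without pair 1 it was 0.47 (SE 0.38). At these counts the 95% Poisson interval of single libraries was wide, from 95.9 to 139 counts in knockout library 1 and from 44.0 to 75.0 in control library 1, covering counting error only.

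Hapln2, a link protein of nodes of Ranvier also called Bral1, was near the limit of detection, with 3, 12 and 8 counts in knockout libraries, against 13, 7 and 11 counts in control libraries. No order of the groups could be read from these counts. Its log2 fold change of -0.43 (SE 0.60) had a 95% interval from -1.86 to 1.00. Markers of mature oligodendrocytes, the cells in which Hapln2 is best known, summed to between 257 and 676 CPM over 10 genes in knockout and between 209 and 858 CPM in control libraries, and among them Opalin was at 0 in 5 of 6 libraries and, like Mobp, was too low to be tested.

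**Figure D2:**
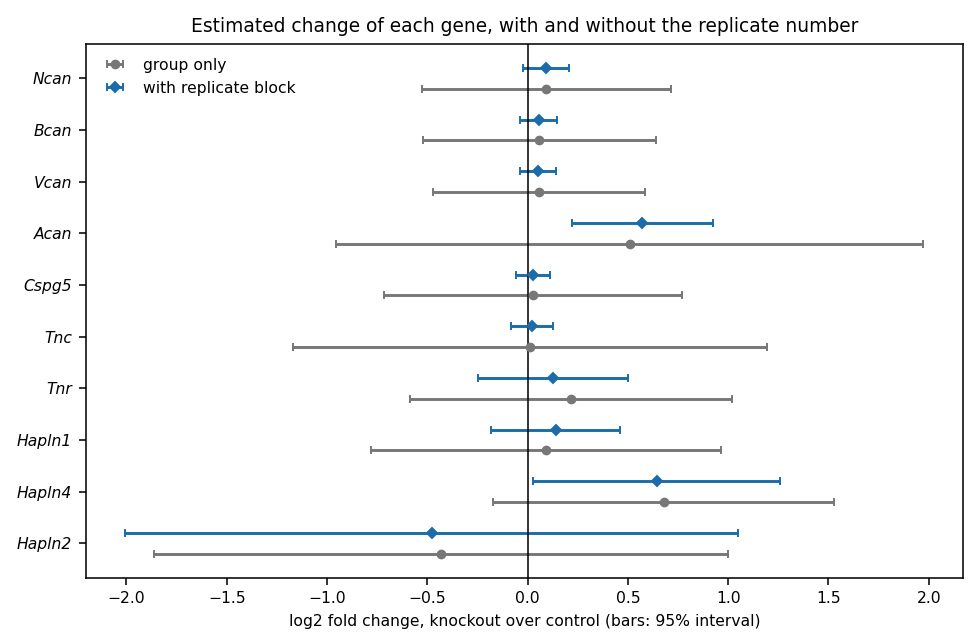
Log2 fold change of each gene, knockout over control (horizontal axis), from the fit with group only (grey circles) and with the replicate number as a block (blue diamonds), with bars for 95% intervals. The blocked intervals of Ncan, Bcan, Vcan, Cspg5 and Tnc are narrow and include 0, those of Acan and Hapln4 lie above 0 without passing the adjusted threshold, and that of Hapln2 spans -2.01 to 1.05.

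The width of the intervals differed between members. The replicate numbers, which both groups share, were taken to pair the libraries because libraries of the same number deviated together from their group means. With the block, the 95% interval of the fold change ran from 0.983 to 1.15 for Ncan, 0.974 to 1.11 for Bcan, 0.973 to 1.10 for Vcan, 0.961 to 1.08 for Cspg5 and 0.944 to 1.09 for Tnc. It was wider for Tnr, from 0.841 to 1.42, for Hapln1, from 0.882 to 1.38, for Acan, from 1.17 to 1.90, and for Hapln4, from 1.02 to 2.39. For Hapln2 it ran from 0.249 to 2.07.

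Variation between replicate numbers was larger than that between genotypes for 8 of the members. Of the sum of squares of log2 CPM over the 6 libraries, 99.5% lay between replicate numbers for Tnc, 99.3% for Cspg5, 98.3% for Bcan, 97.4% for Vcan, 96.0% for Ncan, 88.2% for Hapln1, 85.2% for Acan and 62.6% for Tnr, beside a median of 77.7% over all tested genes. Hapln4, with 37.0% between numbers and 51.8% between groups, and Hapln2, with 13.7% and 16.7%, were the exceptions. Mean CPM over both libraries of a number was 561, 356 and 1044 for Tnc under numbers 1, 2 and 3, and 1125, 778 and 1350.1 for Ncan. For Vcan it was 623, 435 and 417, and for Hapln1 13.5, 13.7 and 7.48.

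The members did not all follow 1 order across the numbers. Bcan, Ncan, Cspg5, Tnc and Acan were lowest under number 2 in both groups, whereas Vcan was highest under number 1 and Hapln1 lowest under number 3. Pearson's r of log2 CPM over the 6 libraries was 0.98 between Bcan and Cspg5, 0.96 between Ncan and Cspg5, 0.95 between Ncan and Tnc and -0.85 between Tnc and Hapln1, given as a description because libraries of a number are paired and the 6 points are not independent. Among neighbours on the chromosome r was 0.53 for Vcan and Hapln1, 0.18 for Ncan and Hapln4 and -0.25 for Bcan and Hapln2. The sums of OPC markers and of astrocyte markers were also lowest under number 2. There OPC markers summed to 2303 and 2258 CPM in knockout and control libraries, against 3735 to 4842 and 3578 to 4052 CPM under the other numbers. Ptprz1 alone made up 1517 and 1333 CPM of the OPC sums under number 2. The 12 astrocyte markers summed to 1880 and 1594 CPM under that number. In control libraries Olig2, Sox10, Gpr17 and Matn4 were instead lowest under number 3, as was S100b in both groups. The other markers of both lists were lowest under number 2 in both groups. None of the 12 astrocyte markers was at 0, and the part of cell makeup in the members' levels was not tested. The genes of at least 10 CPM with levels most like those of Ncan, the most abundant member, were Oaz2, Fkbp10, Mfge8, Ubxn8 and Mafk, with r from 0.998 to 0.996 over 6 libraries among 10556 genes.

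Levels of different genes were set side by side per exon length, as RPKM (CPM per kilobase of merged exons). Ncan at 157 ± 42.5 RPKM in knockout and 145 ± 38.2 RPKM in control libraries and Bcan at 141 ± 35.0 and 134 ± 32.0 RPKM were followed by Tnc at 85.1 ± 45.3 and 83.1 ± 45.7 RPKM (SD, n = 3 each). Ncan and Bcan stood at the 99.3 and 99.2 percentiles of mean RPKM among 15332 tested genes with a length, Tnc at the 97.9. Vcan averaged 34.0 and Cspg5 31.9 RPKM over all libraries, and Tnr 9.25 RPKM. Hapln1 at 1.96, Acan at 1.16, Hapln4 at 0.616 and Hapln2 at 0.139 RPKM closed the order. Some neighbours in this order did not separate in every library: Ncan exceeded Bcan in 5 of 6 libraries, Vcan exceeded Cspg5 in 4, Hapln1 exceeded Acan in 5 and Acan exceeded Hapln4 in 5. The other neighbours kept their order in all 6. Hapln1, Hapln2 and Hapln4 were lower per length than the lectican next to each of them in all 6 libraries. Hapln3 was lower than its neighbour Acan only in knockout library 1. The RPKM ratio of Acan to Hapln3 was 1.19, 0.402 and 0.702 in knockout and 0.820, 0.280 and 0.538 in control libraries. The RPKM ratio of Vcan to Hapln1 was 20.1, 12.9 and 19.5 in knockout and 17.7, 13.0 and 27.3 in control libraries, and that of Ncan to Hapln4 was 145, 202 and 308 in knockout and 286, 217 and 453 in control libraries.

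**Figure D3:**
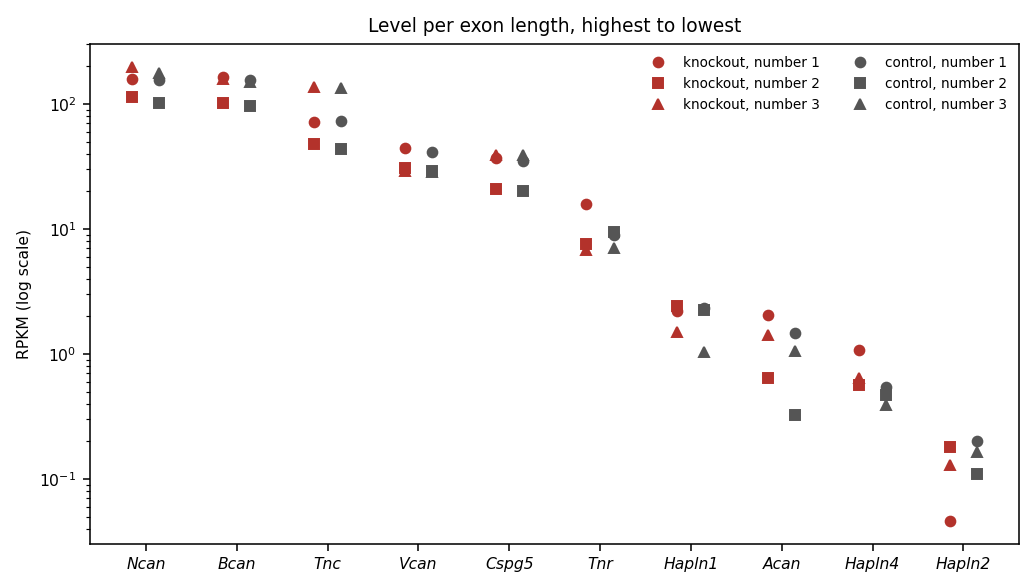
Level per exon length (RPKM, log axis) of the 10 genes in order of their mean, with knockout libraries in red left of control libraries in grey and a symbol for each replicate number. Ncan and Bcan lead near 151 and 138 RPKM, and the link protein genes and Acan lie below 3 RPKM.

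Other genes that build, cut or bind this matrix were taken from 5 lists. Without the block edgeR called 0 of them, against 0% of all tested genes. Unless stated, the values below are from the fit with the replicate block. Of 10 genes of hyaluronan synthesis, breakdown and reception 1 rose, 0 fell and 9 did not pass, with a median log2 fold change of 0.08, beside 1.57% higher, 2.23% lower and a median of 0.00 over all tested genes. The riser was Cd44, the hyaluronan receptor, at 38.9, 37.3 and 67.9 CPM in knockout libraries, against 34.2, 24.0 and 47.7 CPM in control libraries. This amounted to 0.42 on the log2 scale (SE 0.09; adjusted p = 0.0381 by edgeR), and the call was lost when pair 2 (0.112) or pair 3 (0.187) was left out and after GC correction (0.0591). The hyaluronan synthase gene Has2, at a log2 fold change of 0.11 (SE 0.13), did not pass.

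Of 14 genes of lectican-cleaving proteases and their inhibitors 2 rose, 0 fell and 12 did not pass, with a median of 0.10, where 1.57% of all tested genes were called higher and 2.23% lower. Adamts1, a secreted protease that can cut aggrecan and versican, stood at 207, 75.2 and 215 CPM in knockout libraries, against 176, 56.7 and 158 CPM in control libraries, a log2 fold change of 0.34 (SE 0.05; adjusted p = 0.0107 by edgeR). The call was lost when pair 3 was left out (adjusted p = 0.0721 by edgeR). Timp3, a matrix-bound inhibitor of such proteases, averaged 224 ± 88.9 CPM in knockout and 192 ± 87.3 CPM in control libraries (SD, n = 3 each), a log2 fold change of 0.22 (SE 0.04; adjusted p = 0.0283 by edgeR), and the call was lost when pair 1, 2 or 3 was left out (0.0686, 0.0700 and 0.0512) and after GC correction (0.0645). Adamts4 and Adamts5, the classical aggrecanases, were at -0.01 (SE 0.18) and -0.01 (SE 0.15).

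Of 18 receptors and binding partners 1 rose, 1 fell and 16 did not pass, with a median of 0.02, where 3.80% of all tested genes were called in either direction. Cntn1 encodes contactin-1, a surface protein that binds tenascins, and stood at 264, 142.5 and 277 CPM in knockout libraries, against 215, 113 and 220.1 CPM in control libraries. It rose by 0.30 in log2 terms (SE 0.04; adjusted p = 0.00426 by edgeR), and it kept the call with pair 1, 2 or 3 left out (0.00400, 0.00534 and 0.0432) and after GC correction (0.00888). Ptprs, a receptor phosphatase for chondroitin sulphate, stood at 949, 1329 and 979 CPM in knockout libraries, against 1176, 1477 and 1101 CPM in control libraries. It fell by 0.24 in log2 terms (SE 0.05; adjusted p = 0.0393 by edgeR), and the call was lost when pair 1, 2 or 3 was left out (0.210, 0.145 and 0.0548), with library totals (0.0561) and after GC correction (0.379). Beside this fall, 5 of the 12 neuron markers were lower and 0 higher in the knockout library of all 3 pairs, with 2 called lower by edgeR, Tubb3 and Neurod2, and a median log2 fold change of -0.15. Over all tested genes, 16.0% were lower and 23.9% higher in all 3 pairs, and 2.23% were called lower. The neuron markers summed to 2324, 3266 and 2556 CPM in knockout and 2537, 3360 and 2862 CPM in control libraries, and their part in the fall of Ptprs was not tested.

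Of 22 genes of chondroitin sulphate chain synthesis 21 were tested and 0 passed, with a median of -0.04. Over all tested genes 3.80% were called in either direction, with a median of 0.00. Chpf, whose product helps to lengthen the chains, lay just outside the threshold at -0.28 (SE 0.07; adjusted p = 0.0501 by edgeR), and Chst11, a sulphotransferase and the most abundant gene of the list, was at 0.07 (SE 0.06). Chst13 was at 0 in some library and was not tested. Of 5 other proteoglycan, link protein and tenascin genes 0 passed, against the same 3.80%, with a median of 0.18. Among them Ptprz1, a receptor phosphatase and proteoglycan of OPCs and astrocytes that binds contactin-1, averaged 2264 ± 654 CPM in knockout and 1962 ± 548 CPM in control libraries (SD, n = 3 each), at 0.18 (SE 0.06, edgeR adjusted p = 0.123, DESeq2 0.00570 and limma-voom 0.0168 with the block). Beside the rises of Cd44, Adamts1, Timp3 and Cntn1, 9 of 12 astrocyte markers and 10 of 10 endothelial markers were higher in the knockout library of all 3 pairs, with 4 and 9 of them called higher. Over all tested genes, 23.9% were higher in all 3 pairs and 1.57% were called higher. Summed levels were between 1880 and 3496 CPM in knockout and between 1594 and 2965 CPM in control libraries for astrocyte markers, and between 49.3 and 342 and between 20.5 and 98.4 CPM for endothelial markers. Of the 10 ependymal and choroid plexus markers 8 were higher in all 3 pairs and 5 were called higher, with sums of 1057, 855 and 2809 CPM in knockout and 456, 354 and 1897 CPM in control libraries. Ttr alone made up 817, 672 and 2616 CPM of these sums in knockout and 246, 282 and 1756 CPM in control libraries. Of the 10 pericyte and fibroblast markers 5 were higher in all 3 pairs and 2 were called higher, with sums between 218 and 1217 CPM in knockout and between 165 and 830 CPM in control libraries. Cspg4, which is also among the OPC markers, made up 203, 70.5 and 144 CPM of these sums in knockout libraries. In control libraries it made up 195, 63.3 and 161 CPM. No marker of these lists was at 0, and their part in the rises was not tested.

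**Figure D4:**
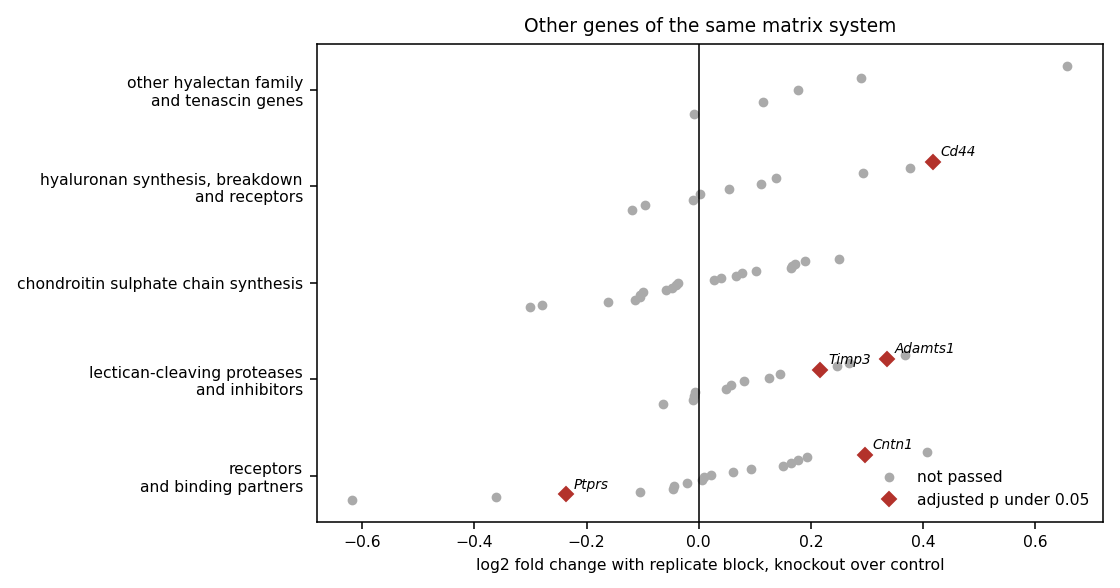
Log2 fold change with the replicate block, knockout over control (horizontal axis), of each tested gene in 5 lists of the same matrix system, with red diamonds for an edgeR adjusted p under 0.05. Cd44, Adamts1, Timp3 and Cntn1 lie to the right of 0 and Ptprs to the left, and the chondroitin sulphate synthesis genes hold no call.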

How the data were processed

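The deposited files hold raw counts of read pairs per gene symbol from stranded poly(A) libraries, per the labels' protocols. Per the submitters' processing notes, HTSeq 0.12.4, HISAT2 2.2.1, DESeq2 1.26.0 and mm10 were used, with no roles given. For the counting, annotation, options and strandedness are not given in the sources used, so reads of genes that overlap or adjoin another may be shared. Of the genes that overlap a member in GENCODE, 1 was listed (Mir7066 within Ncan, at most 1 count).

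Library sizes exclude the 5 summary entries of each table, which hold no gene. Mean shares of read pairs in knockout and in control libraries were: no feature 20.8% and 19.7%, ambiguous 1.45% and 1.46%, low quality 3.83% and 3.11%, unaligned 1.25% and 1.03%, multiply aligned 3.41% and 3.46%.

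Groups and replicate numbers came from the labels. Counts were scaled by TMM, filtered with filterByExpr and compared in edgeR 4.0.16 (R 4.3.3) by its quasi-likelihood test, two-sided, group as the only term, adjusted by Benjamini-Hochberg over 15906 genes. A second fit added the replicate number as a block. Over tested genes, knockout and control libraries of number 1, 2 and 3 deviated from their group means with correlations of 0.712, 0.682 and 0.654, which is where the pairing comes from. The labels do not say what a number marks. CPM in the text is over library totals. Pair ratios are of log2 CPM with 0.5 counts added. RPKM used merged GENCODE exons. Alternatives were DESeq2 size factors, library totals and upper quartile scaling, no filter or a minimum mean level of 5 CPM, the test of DESeq2 1.42.0, limma-voom (limma 3.58.1), each library left out, and with the block also a GC correction in 20 bins and each pair left out. The fits were tested on simulated data whose planted changes were all larger than the members' estimates in both fits. That test therefore does not cover changes of the members' size.

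The members and lists were chosen with earlier results of these data known. Named are all members, Prrc2b, up to 4 called genes per related list (otherwise its most abundant gene) and the 5 genes most like the most abundant member. Hapln3, Has2, Adamts4, Adamts5, Chpf, Chst13 and Opalin were added after their values were seen. Single cell type markers outside this rule were likewise named with their values known. They are Olig2, Sox10, Gpr17, Matn4, S100b, Mobp, Cspg4, Acta2, Kcnj13, Otx2, Kl, Foxj1, Rsph1 and Tmem212.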

Additional observations from a re-analysis of the deposited data

Results flagged for a closer look

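Among read pairs outside the gene counts, the share in no gene was above all control libraries in each knockout library, at 20.8% ± 0.50 against 19.7% ± 0.665 (SD, n = 3 each). The share of low alignment quality was likewise higher in every knockout library, at 3.83% ± 0.248 against 3.11% ± 0.193, and so was the unaligned share, at 1.25% ± 0.122 against 1.03% ± 0.0964. Their part in the members' values was not tested. No group had enough libraries to look for single libraries that stand far from the rest.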

How the results depend on the processing

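In 22 alternative settings 0 members were called wherever the setting gave an adjusted p. Hapln2 had none with DESeq2 and the block, and Hapln2 and Hapln4 were left out by the filter at a mean of 5 CPM. Acan and Hapln4 were higher in knockout libraries in every setting that gave a value, from 0.09 to 0.97 and from 0.34 to 0.85 on the log2 scale. The other 8 members changed sign in settings that left out a library or a pair and in no other (with the block, -0.0199 for Tnc without pair 2, -0.016 for Hapln1 without pair 3, and -0.2041 for Tnr and 0.1561 for Hapln2 without pair 1). Their ranges over those settings were -0.12 to 0.25 for Bcan, -0.11 to 0.27 for Ncan, -0.16 to 0.25 for Vcan, -0.21 to 0.25 for Cspg5, -0.27 to 0.43 for Tnr, -0.49 to 0.51 for Tnc, -0.20 to 0.28 for Hapln1 and -1.11 to 0.16 for Hapln2. Over all tested genes, calls numbered 0 with edgeR in each setting without the block, single libraries left out included, and 20 with DESeq2. With the replicate block they numbered 604 with edgeR, 502 with library totals, 573 with DESeq2 size factors, 671 with DESeq2, 712 with limma-voom and 385 after GC correction. Without the pair numbered 1, 2 or 3 they were 448, 521 and 174. The block changed no member's call. Depth limits Hapln2 and Hapln4, with at most 13 and 116 counts per library.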
